A study of Mus musculus with 2 samples.

Results

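The matrix proteases and their inhibitors described here were the *Adamts*, *Adamtsl*, *Mmp* and *Timp* genes, taken by symbol from the gene list of a single-nucleus multiome of the fetal mouse testis. The symbols gave 50 genes of 32285, namely 19 *Adamts*, 5 *Adamtsl*, 22 *Mmp* and 4 *Timp* genes. RNA and open chromatin (ATAC) were measured in the same nuclei of whole testes from male mouse embryos at E14.5, carrying *Nr5a1-cre* and *Rosa-tdTomato*, with 1 RNA library and 1 ATAC library. The cre allele is driven by *Nr5a1*, a gene of steroidogenic and Sertoli cells. No treatment or second genotype was compared, and the sources used here do not give how many embryos were pooled. With 1 library per assay there was no replicate, so no test was made. Every interval below is a 95% counting interval that covers neither the spread between embryos nor that between nuclei.

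The extracellular matrix of the fetal testis separates the cords, which hold Sertoli and germ cells, from the interstitium with its Leydig cells, progenitors and vessels. MMPs are zinc proteinases that cut collagens, basement membrane and cell surface proteins, and most are made as inactive precursors. ADAMTS proteinases are secreted relatives that cut proteoglycans such as versican or trim procollagens, ADAMTS-like proteins share their ancillary domains but lack the catalytic domain, and TIMPs bind and block the active sites.

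Of 9833 deposited barcodes, 7197 nuclei were kept, with medians of 7949 RNA molecules (UMIs), 3157 genes and 4484 ATAC fragments. Clustering on RNA and ATAC together, with the RNA of the 50 genes kept out of the clustering, gave 17 clusters, which were named from marker genes. They formed 2094 progenitor-like nuclei (*Pdgfra*, *Tcf21*), 1185 contractile-like (*Acta2*, *Myh11*), 802 Leydig-like (*Cyp17a1*, *Insl3*), 830 Sertoli-like (*Sox9*, *Amh*), 571 germ-like (*Ddx4*, *Dazl*), 544 surface epithelium-like (*Upk3b*, *Muc16*) and 388 mesonephric mesenchyme-like nuclei (*Itga8*, *Rxfp2*). Smaller classes held 98 endothelial-like, 69 immune-like, 48 erythroid-like, 83 supporting-like (*Pax8*, *Aldh1a3*) and 67 pericyte-like nuclei, and 418 nuclei stayed unnamed because germ markers scored highest in their cluster while *Lhx1*, a mesonephric tubule marker, was among its leading genes. Other settings gave more germ-like nuclei, 989 at a clustering resolution of 0.3 and 894 with clusters on RNA alone. With the members allowed among the variable genes at a resolution of 0.6, 987 nuclei were germ-like and no cluster stayed unnamed. The unnamed nuclei may thus include many germ cells. Among the germ-like nuclei, 70 formed a cluster with a median of 33446 UMIs. Germ-like values are pooled over both germ-like clusters, without the unnamed one, unless stated. For several members the smaller cluster was the higher one, such as *Adamts5* (67.4 against 27.1 CPM), *Adamts2* (116 against 33.8) and *Adamts17* (66.5 against 37.6). The unnamed cluster had 17.2, 15.5 and 14.9 CPM of these genes, so their pooled germ-like values would be lower with it included. Free RNA, released by broken cells, was estimated from germ, Sertoli and Leydig markers in other classes, against the pooled RNA of all deposited barcodes. It was 57.9% of germ-like, 53.5% of endothelial-like, 38.6% of pericyte-like, 37.1% of supporting-like, 33.2% of Sertoli-like, 28.0% of progenitor-like and 19.5% of Leydig-like UMIs. This estimate also takes in RNA of doublets and true expression, and can be too high. *Adamts16* had 7.50 CPM in progenitor-like nuclei, less than 28.0% of its 128 CPM over all kept nuclei. Levels are given as UMIs of the gene per 1000000 UMIs of a class (CPM) and are compared between classes, not between genes.

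The 50 genes held 209702 UMIs in the kept nuclei. At a minimum of 20 UMIs, 39 were detected, namely 18 of 19 *Adamts*, 5 of 5 *Adamtsl*, 12 of 22 *Mmp* and 4 of 4 *Timp* genes, against 60.1% of all 32285 genes. The others were 10 *Mmp* genes and *Adamts13*, the protease of von Willebrand factor, with 6 UMIs. The 25 genes with at least 100 UMIs and at least 20 CPM in their highest class are described one by one below. A further 14 lay between these bounds.

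The undetected *Mmp* genes lay mostly in one stretch of chromosome 9. This stretch, between the start of *Mmp13* at 7272514 and the end of *Mmp7* at 7699585 (GRCm38), holds the interstitial collagenase, stromelysin, neutrophil collagenase, macrophage elastase and matrilysin genes. *Mmp1b*, *Mmp3* and *Mmp7* had 0 UMIs, which allows up to 0.0389 CPM (3 UMIs) over all kept nuclei. *Mmp20*, the enamel proteinase, had 3, *Mmp10*, *Mmp12* and *Mmp13* had 5 each, *Mmp27* had 6 and *Mmp8* had 13. *Mmp21*, on chromosome 7, had 9. The chromatin showed the same division. A peak lay within 1 kb of the start of 1 of 11 members under 20 UMIs, the exception being *Mmp8*, against 22.8% of all genes that low. Among members with at least 20 UMIs a peak lay at the start of 38 of 39, against 82.9% of all such genes, and *Mmp9* was the one without.

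Promoter sequences from RefSeq (GRCm38.p6) were found for 35 of the 50 genes. The 250 bases upstream of the start were searched on both strands for 4 short motifs. A member counted when any of its listed promoters held the letters, whereas the shares of all promoters are over 32851 single promoters. The letters TGAGTCA (reverse TGACTCA), the AP-1 element long known from collagenase and stromelysin promoters, occurred in 6 of 17 *Mmp* promoters and in none of the 10 *Adamts*, 4 *Adamtsl* and 4 *Timp* promoters, against 4.46% of all promoters. The 6 were *Mmp1b*, *Mmp3*, *Mmp7*, *Mmp10*, *Mmp12* and *Mmp13*, all of the undetected chromosome 9 stretch. *Mmp3* (chr9:7445572-7445821, plus strand) and *Mmp13* (chr9:7272264-7272513, plus strand) are shown because they carry this element close to the start and had no peak there, with the element in capitals.
Mmp3 promoter: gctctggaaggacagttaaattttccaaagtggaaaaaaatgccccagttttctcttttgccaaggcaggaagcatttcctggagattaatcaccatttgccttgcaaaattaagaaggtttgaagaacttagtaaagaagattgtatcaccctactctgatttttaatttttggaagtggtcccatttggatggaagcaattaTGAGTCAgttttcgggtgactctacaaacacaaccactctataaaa
Mmp13 promoter: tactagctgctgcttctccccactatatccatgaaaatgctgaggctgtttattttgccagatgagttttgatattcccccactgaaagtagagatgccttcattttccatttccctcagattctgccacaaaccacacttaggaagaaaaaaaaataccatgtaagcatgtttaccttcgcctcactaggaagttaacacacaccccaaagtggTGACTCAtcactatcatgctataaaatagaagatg
In both, the capitals stand within the last 50 bases before the start. The SOX letters ACAATG (reverse CATTGT) occurred in 4 of the 35 member promoters, against 10.7% of all promoters. The GATA letters AGATAA (reverse TTATCT) occurred in 3, against 9.99%, and the nuclear receptor element AAGGTCA (reverse TGACCTT) in 1, against 4.08%. No *Adamts* promoter held any of these letters, which says nothing of the factors themselves.

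Most detected members were unequal between classes. A gene was counted as higher in a class when its CPM was at least 2-fold that of all other kept nuclei and the interval of the ratio lay above 1. In at least 1 class this held for 32 of 39 members, against 62.5% of all 19418 genes tested. By class, the count was 12 of 39 in mesonephric mesenchyme-like nuclei (4.38% of all genes), 11 in progenitor-like (4.77%), 8 in surface epithelium-like (6.05%), 6 in contractile-like (3.84%) and 6 in Sertoli-like nuclei (8.23%). Endothelial-like nuclei had 5 (4.87%), supporting-like 4 (5.54%) and pericyte-like 3 (3.92%). Leydig-like nuclei had 2, *Mmp24* and *Timp1*, beside 7.66% of all genes. Germ-like nuclei had 1, *Mmp9* with 49 UMIs in all, beside 16.1% of all genes, and erythroid-like nuclei had 1, *Adamts3*, beside 8.97%. Immune-like nuclei and the unnamed cluster had 0, beside 7.95% and 14.4% of all genes. The share of members was thus 30.8% in mesonephric mesenchyme-like and 28.2% in progenitor-like nuclei, and 2.56% in germ-like nuclei.

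**Figure D1:**
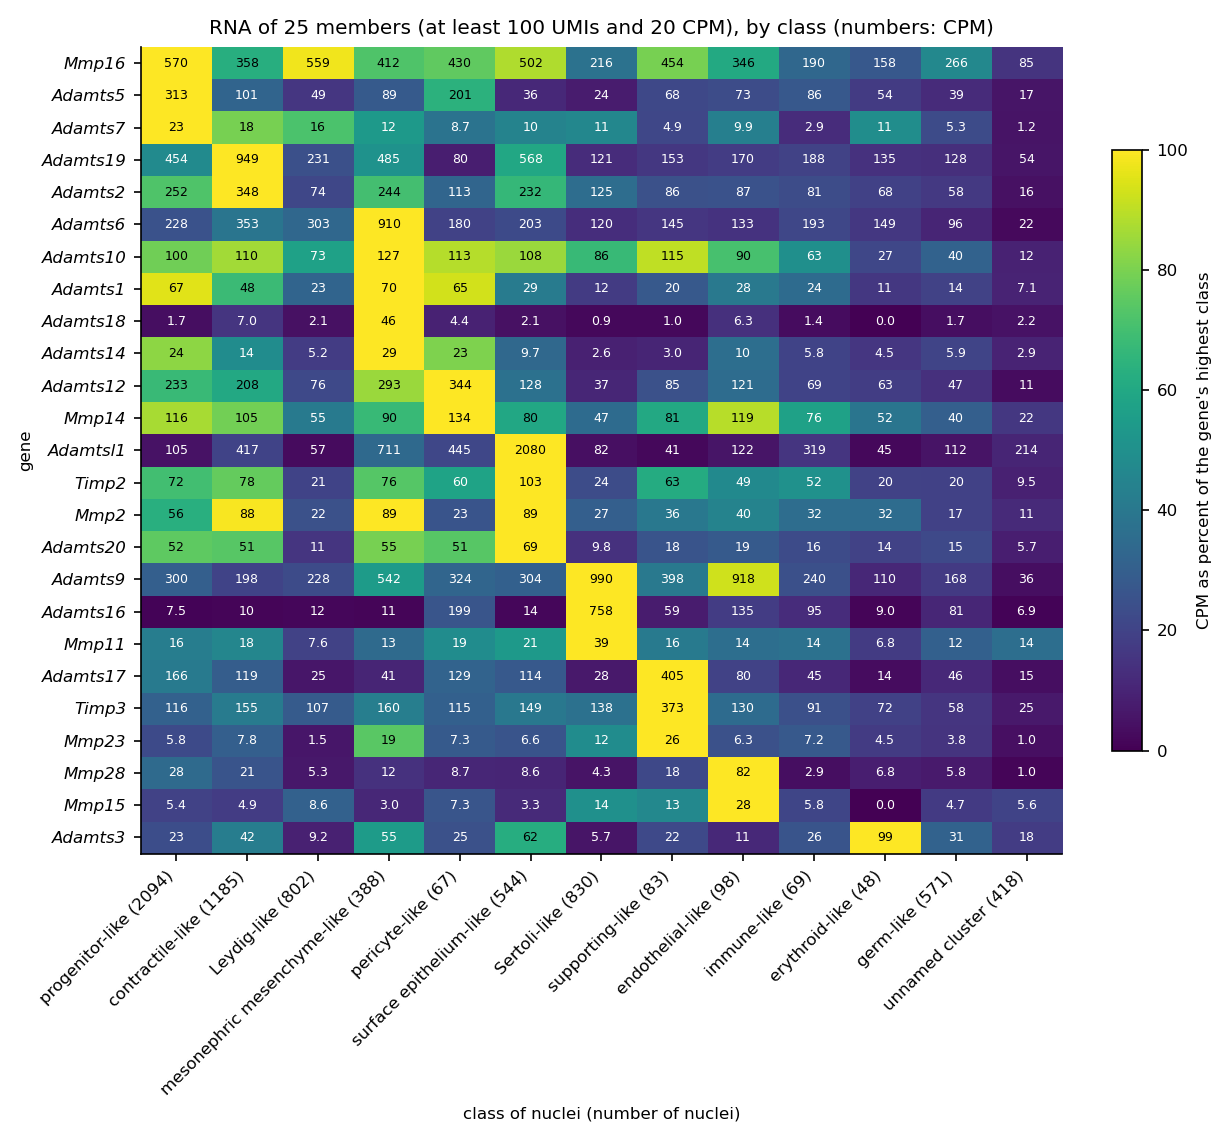
RNA level of the 25 described genes (rows) in 12 named classes of nuclei and the unnamed cluster (columns, number of nuclei in brackets). Numbers are CPM and the colour is the CPM as a percent of the gene's highest class, on a scale from 0 to 100. *Adamts16*, *Adamts18* and *Adamtsl1* each have 1 bright class, whereas *Mmp16*, *Mmp14* and *Adamts10* are spread over many.

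Among the proteoglycan-cutting ADAMTS proteinases, *Adamts5* (chr16:85856173-85901828), the main cartilage aggrecanase of the mouse and a versicanase, was highest in progenitor-like nuclei. It reached 313 CPM there (304 to 322), 201 in pericyte-like, 101 in contractile-like, 49.4 in Leydig-like, 38.8 in germ-like and 24.4 CPM in Sertoli-like nuclei. The progenitor-like level was 6.22 times that of all other nuclei (5.94 to 6.5), and that class held 61.9% of the *Adamts5* UMIs. This ratio was 11.1 when more nuclei were removed as doublets (the automatic Scrublet threshold, clustered again at the same resolution of 0.6, here and below) and 13.2 with free RNA subtracted, and 1.94 at a clustering resolution of 0.3, where only the cycling cluster bore the progenitor-like name and an unnamed cluster had the highest *Adamts5* level. After thinning each nucleus to 2000 UMIs, 39.2% of progenitor-like nuclei had an *Adamts5* UMI, against 6.51% in the Leydig-like and 4.55% in the germ-like class. Within the class, the cluster of 1484 nuclei had 379 CPM and the cluster of 610 nuclei led by cell cycle genes had 210.3 CPM. *Adamts5* was the leading gene of the larger cluster by fold, although its RNA had no part in forming it. *Adamts1*, its neighbour on chromosome 16 and a versicanase of the ovary and heart, had a similar but flatter order. Its level was 70.2 CPM in mesonephric mesenchyme-like, 67.1 in progenitor-like and 65.4 in pericyte-like nuclei, and these 3 did not differ beyond their counting error. *Adamts4*, another aggrecanase, had only 308 UMIs and was at 8.06 CPM in progenitor-like, 8.03 in mesonephric mesenchyme-like and 1.54 CPM in Leydig-like nuclei.

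*Adamts9* (chr6:92772699-92943492), a broad versicanase that also acts at the cilium base, was highest in 2 unlike classes. Sertoli-like nuclei had 990 CPM (971 to 1010) and endothelial-like nuclei 918 CPM (879 to 959), ahead of mesonephric mesenchyme-like nuclei at 542 CPM. Both endothelial-like clusters were high, at 1040 CPM in 65 nuclei and 819 CPM in 33. The order of the leading classes turned under other settings. Endothelial-like nuclei led with 1505 CPM against 1139 in Sertoli-like nuclei when more nuclei were removed as doublets, and with 1574 against 1308 when ambient RNA was subtracted. *Adamts20*, its closest relative and the gene of the belted coat mutant, had another order, with 68.8 CPM in surface epithelium-like, 54.8 in mesonephric mesenchyme-like and 51.8 in progenitor-like nuclei, and 9.75 CPM in Sertoli-like nuclei. *Adamts15* and *Adamts8* had 142 and 97 UMIs. *Adamts15* was at 9.92 CPM in surface epithelium-like and 9.86 in supporting-like nuclei, and *Adamts8* at 3.02 CPM in contractile-like nuclei.

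The procollagen N-proteinases, which trim fibrillar collagens, peaked in different classes. *Adamts2*, the gene of dermatosparaxis, was highest in contractile-like nuclei, at 348 CPM (335 to 361), followed by progenitor-like (252), mesonephric mesenchyme-like (244) and surface epithelium-like nuclei (232), and the last 3 lay close together. Leydig-like nuclei had 74.0 CPM and germ-like nuclei 57.7 CPM. *Adamts14* was highest in mesonephric mesenchyme-like (28.8 CPM), progenitor-like (23.9) and pericyte-like nuclei (23.3), and the ratio of the first to the next, 1.2 (0.942 to 1.53), was not distinguishable from 1. *Adamts3*, which acts on type II procollagen and on the activation of VEGF-C, read 99.1 CPM in erythroid-like nuclei. These were 48 nuclei with 44 UMIs of the gene, 2.17% of its total, and with more doublets removed they had 53.5 CPM, below surface epithelium-like nuclei at 65.1 CPM. Surface epithelium-like nuclei (61.6 CPM) and mesonephric mesenchyme-like nuclei (54.5) were the next highest in the kept set.

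*Adamts7* and *Adamts12*, relatives with a mucin domain that cut cartilage oligomeric matrix protein, differed in spread. *Adamts12* was at 344 CPM in pericyte-like, 293 in mesonephric mesenchyme-like, 233 in progenitor-like and 36.8 CPM in Sertoli-like nuclei. *Adamts7* had 23.0 CPM in progenitor-like, 18.2 in contractile-like and 16.5 in Leydig-like nuclei. It overlaps *Tbc1d2b* on the opposite strand, and the sources used here do not say whether strands were separated in counting. The same holds for *Adamts9* (with *A730049H05Rik* and *Gm15737*), *Mmp11* (*Chchd10*), *Mmp28* (*1700020L24Rik*), *Mmp19* (*Tmem198b*) and *Mmp24* (*BC029722*), while *Timp2* overlaps *Cep295nl* on the same strand.

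*Adamts6* and *Adamts10* are a pair of relatives tied to fibrillin microfibrils, and only the first was sharply placed. *Adamts6* (chr13:104287835-104496695) was at 910 CPM (876 to 945) in mesonephric mesenchyme-like nuclei, 2.57 times the next class (2.44 to 2.71), with 353 CPM in contractile-like and 303 CPM in Leydig-like nuclei. It was one of the few members at which Leydig-like nuclei stood above progenitor-like nuclei, which had 228 CPM. *Adamts10*, the gene of a form of Weill-Marchesani syndrome, ran from 127 CPM in mesonephric mesenchyme-like to 99.9 in progenitor-like nuclei over 6 classes, with 40.2 CPM in germ-like nuclei.

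*Adamts17* (chr7:66839735-67153171), another Weill-Marchesani gene, was highest in the 83 supporting-like nuclei. It reached 405 CPM there (367 to 446), 166 in progenitor-like, 129 in pericyte-like, 119 in contractile-like and 28.5 CPM in Sertoli-like nuclei. The supporting-like level was 2.45 times that of progenitor-like nuclei (2.20 to 2.71). Thinned to 2000 UMIs, 43.4% of supporting-like nuclei had an *Adamts17* UMI, against 6.30% of germ-like nuclei. Within the progenitor-like class the cluster of 1484 nuclei had 210.5 CPM and the cycling cluster 96.5 CPM, as with *Adamts5*.

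*Adamts16* (chr13:70727802-70841811), an orphan proteinase known from the rat testis and kidney, had the largest ratio of any described member. It was at 758 CPM (741 to 775) in Sertoli-like nuclei, 22.8 times the level of all other nuclei (21.8 to 23.9), and 77.4% of its UMIs were there. This ratio was 18.0 with stricter quality minimums at the same resolution, 39.6 without the germ-like cluster of 70 nuclei, 50.8 as the mean of per-nucleus CPM, 81.7 with more doublets removed and 82.1 with free RNA subtracted. Thinned, 72.9% of Sertoli-like nuclei had a UMI of it, against 2.25% of Leydig-like and 1.25% of progenitor-like nuclei. Pericyte-like nuclei came next with 199 CPM and a thinned share of 31.3%. Endothelial-like nuclei had 135 CPM but a thinned share of 7.22%, and germ-like nuclei 80.6 CPM and 6.48%. The germ-like value came from the 70 nuclei of very high UMI count, which had 236 CPM against 16.9 CPM in the other 501. With more doublets removed, pericyte-like nuclei kept 260 CPM, while endothelial-like nuclei had 41.0 and germ-like nuclei 2.81 CPM. The Sertoli-like clusters differed, with 909 CPM in 610 nuclei and 531 CPM in 220 nuclei.

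Its relative *Adamts18* had its high level in another class, though it was rare. Mesonephric mesenchyme-like nuclei had 45.8 CPM (38.5 to 54.2) and contractile-like nuclei 7.05 CPM, a ratio of 6.5 (4.73 to 9.04), and the other classes were between 0 and 6.31 CPM. These UMIs sat in few nuclei, since 7.22% of mesonephric mesenchyme-like and 7.14% of endothelial-like nuclei held one, or 2.84% and 1.03% after thinning. *Adamts19* (chromosome 18), linked to heart valve disease and to the developing gonad, was abundant in contractile-like nuclei, at 949 CPM (928 to 971). Surface epithelium-like (568), mesonephric mesenchyme-like (485) and progenitor-like nuclei (454) followed, and Leydig-like (231), germ-like (128) and Sertoli-like nuclei (121) were lower. Its contractile-like level was 1.67 times that of the next class (1.60 to 1.75).

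**Figure D2:**
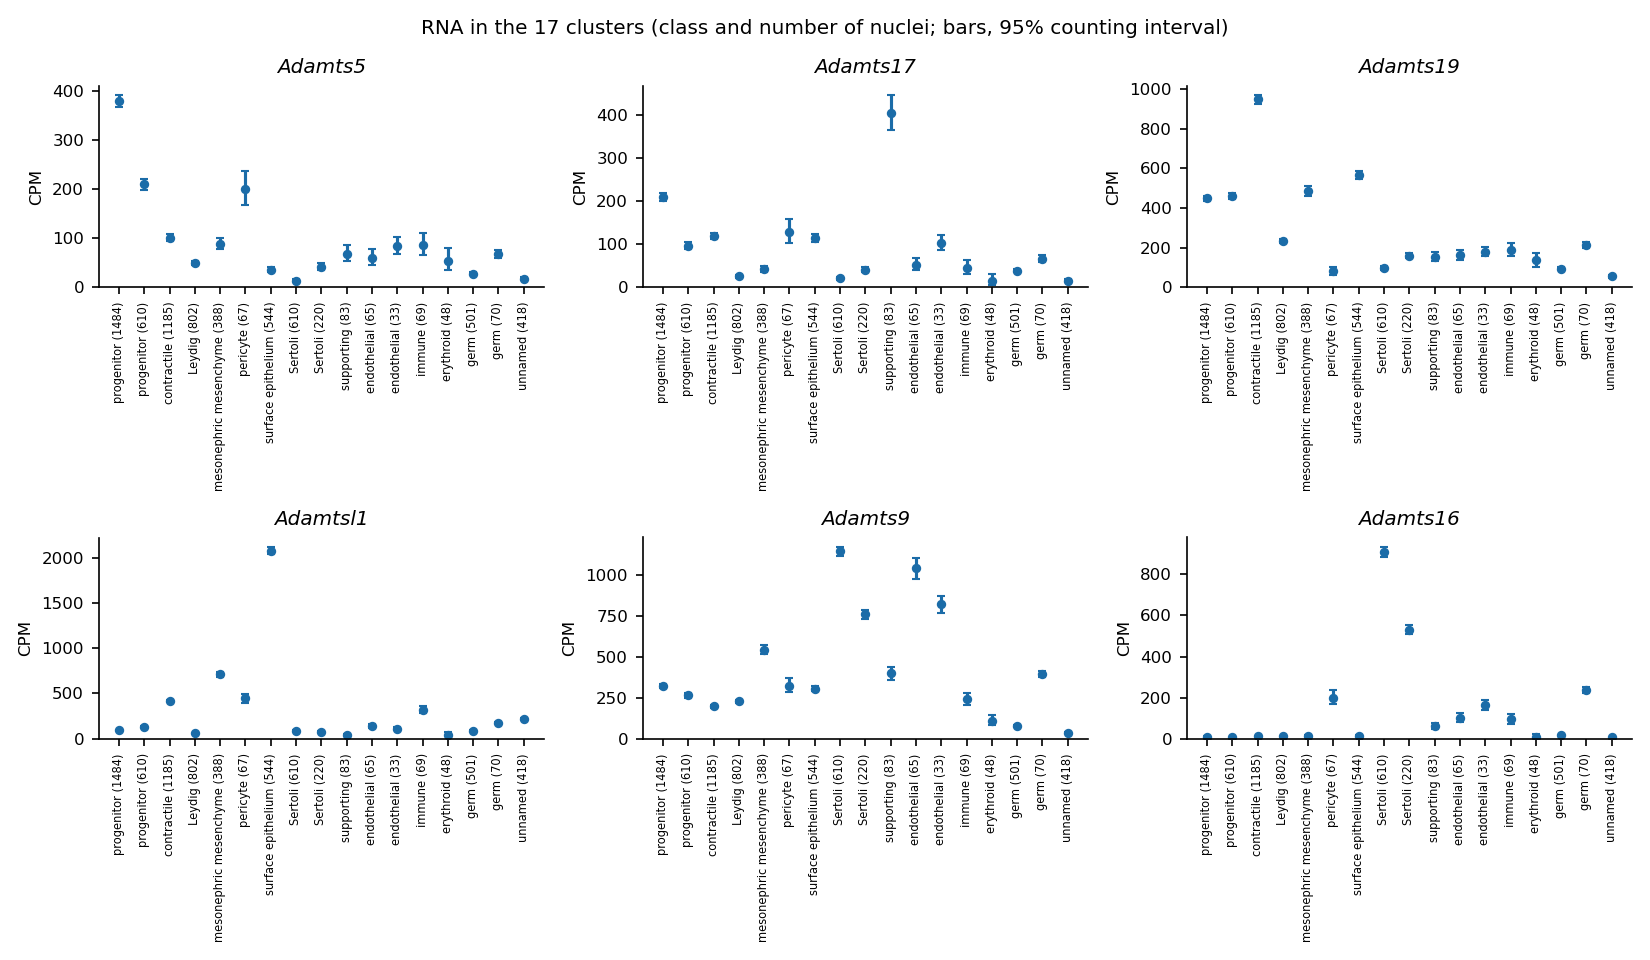
RNA level in CPM (vertical axes, from 0) of 6 members in each of the 17 clusters, labelled by class and number of nuclei, with points for the level and bars for the 95% counting interval. *Adamts5* and *Adamts17* are lower in the smaller, cycling progenitor-like cluster than in the larger one, *Adamts16* and *Adamts9* are higher in the larger Sertoli-like cluster, and both are raised in the germ-like cluster of 70 nuclei against that of 501.

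*Adamtsl1* (chr4:85514172-86428385), an ADAMTS-like protein without protease activity, marked the surface epithelium-like class. It was at 2080 CPM there (2040 to 2119), 711 in mesonephric mesenchyme-like, 445 in pericyte-like, 417 in contractile-like, 105 in progenitor-like nuclei and, in the Leydig-like class, 57.3 CPM. The ratio to all other nuclei was 12.2 (11.9 to 12.5). It lay between 10.3 and 21.2 over 14 alternative settings, with this class the highest in each. Thinned, 75.1% of surface epithelium-like nuclei had a UMI, against 4.76% of Leydig-like nuclei. In immune-like nuclei a level of 319 CPM came from 11.6% of nuclei, and with more doublets removed that class had 3.24 CPM. *Adamtsl1* overlaps *Sh3gl2* on the same strand at its far end. The other 4 ADAMTS-like genes had 558 UMIs or fewer. *Adamtsl3* was highest in progenitor-like nuclei (12.7 CPM), *Adamtsl5* in mesonephric mesenchyme-like (6.69) and *Adamtsl2* in endothelial-like nuclei (4.96), and *Adamtsl4* ranged from 3.94 CPM in supporting-like to 0 in erythroid-like nuclei with no class called.

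Among the membrane-type MMPs, *Mmp16* (MT3-MMP) had 29258 UMIs and no class 2-fold above the rest. Progenitor-like (570 CPM) and Leydig-like nuclei (559 CPM) were level within counting error, with a ratio of 1.02 (0.986 to 1.06). Surface epithelium-like nuclei had 502 CPM, germ-like nuclei 266 and Sertoli-like nuclei 216. *Mmp14* (MT1-MMP), the main activator of pro-MMP2, ran from 134 CPM in pericyte-like, 119 in endothelial-like and 116 in progenitor-like nuclei down to 46.8 in Sertoli-like nuclei, and no class was 2-fold above the rest. *Mmp15* (MT2-MMP) was highest in endothelial-like nuclei, at 27.5 CPM, 1.99 times Sertoli-like nuclei (1.45 to 2.70). The remaining membrane-type members were rare. *Mmp17* had 232 UMIs, *Mmp25* 60 and *Mmp24* 26, the last with 1.10 CPM in Leydig-like nuclei.

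Of the secreted MMPs, *Mmp2* (gelatinase A) was shared by 3 classes, surface epithelium-like (88.9 CPM), mesonephric mesenchyme-like (88.6) and contractile-like (88.1), while progenitor-like nuclei had 55.9 and Leydig-like nuclei 22.0 CPM. *Mmp9* (gelatinase B) reached no more than 2.28 CPM, in germ-like nuclei. *Mmp28* (epilysin) was highest in endothelial-like nuclei, at 81.6 CPM (70.1 to 94.4), 2.89 times progenitor-like nuclei (2.42 to 3.45), and a thinned share of 23.7% of nuclei held it there against 0.350% of germ-like nuclei. *Mmp11* (stromelysin-3) was highest in Sertoli-like nuclei, at 38.7 CPM, 1.86 times surface epithelium-like nuclei (1.5 to 2.33). *Mmp23*, whose product is first anchored in the membrane, stood at 25.6 CPM in supporting-like, 19.1 in mesonephric mesenchyme-like and 12.4 in Sertoli-like nuclei. *Mmp19* had 211 UMIs and 7.19 CPM at most, in immune-like nuclei, where no class was called.

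Among the inhibitors, *Timp3*, the matrix-bound inhibitor that also blocks ADAMTS proteinases, was at 373 CPM (336 to 412) in supporting-like nuclei, 2.34 times the next class (2.04 to 2.68). Elsewhere it lay between 160 CPM in mesonephric mesenchyme-like and 25.5 CPM in the unnamed cluster. *Timp2* ran from 103 CPM in surface epithelium-like and 78.3 in contractile-like to 20.5 in Leydig-like and 19.9 in germ-like nuclei. *Timp1* was highest in Leydig-like (18.9 CPM) and contractile-like nuclei (15.2), a ratio of 1.24 (0.976 to 1.58) that was not distinguishable from 1. *Timp4* had 41 UMIs, 0.768 CPM at most. *Timp1*, *Timp3* and *Timp4* lie within synapsin genes on the opposite strand (*Syn1*, *Syn3* and *Syn2*), and reads of such pairs cannot be told apart without strand.

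Progenitor-like and Leydig-like nuclei, which the study relates as the source and the product of fetal Leydig cell differentiation, were then compared directly. Of 35 members with at least 20 UMIs in both together, 17 were at least 2-fold higher in progenitor-like nuclei, against 13.8% of 15253 genes, and 0 were at least 2-fold higher in Leydig-like nuclei, against 12.9%. The median log2 ratio, with 1 CPM added, was 0.91 over the members and −0.03 over all genes tested. The 17 were 9 *Adamts*, 1 *Adamtsl*, 6 *Mmp* and 1 *Timp* genes. In these classes *Adamts17* had the largest ratio, 166 against 25.1 CPM or 6.60 (5.76 to 7.59), but its interval overlapped those of the genes named next. *Adamts5* was next with 6.34 (5.76 to 7.0), then *Mmp28* with 5.35 (3.97 to 7.37), *Adamts4* with 5.25 (3.02 to 9.87) and *Adamts20* with 4.87 (3.94 to 6.07). *Timp2*, at 71.6 against 20.5 CPM, had 3.49 (2.99 to 4.09).

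**Figure D3:**
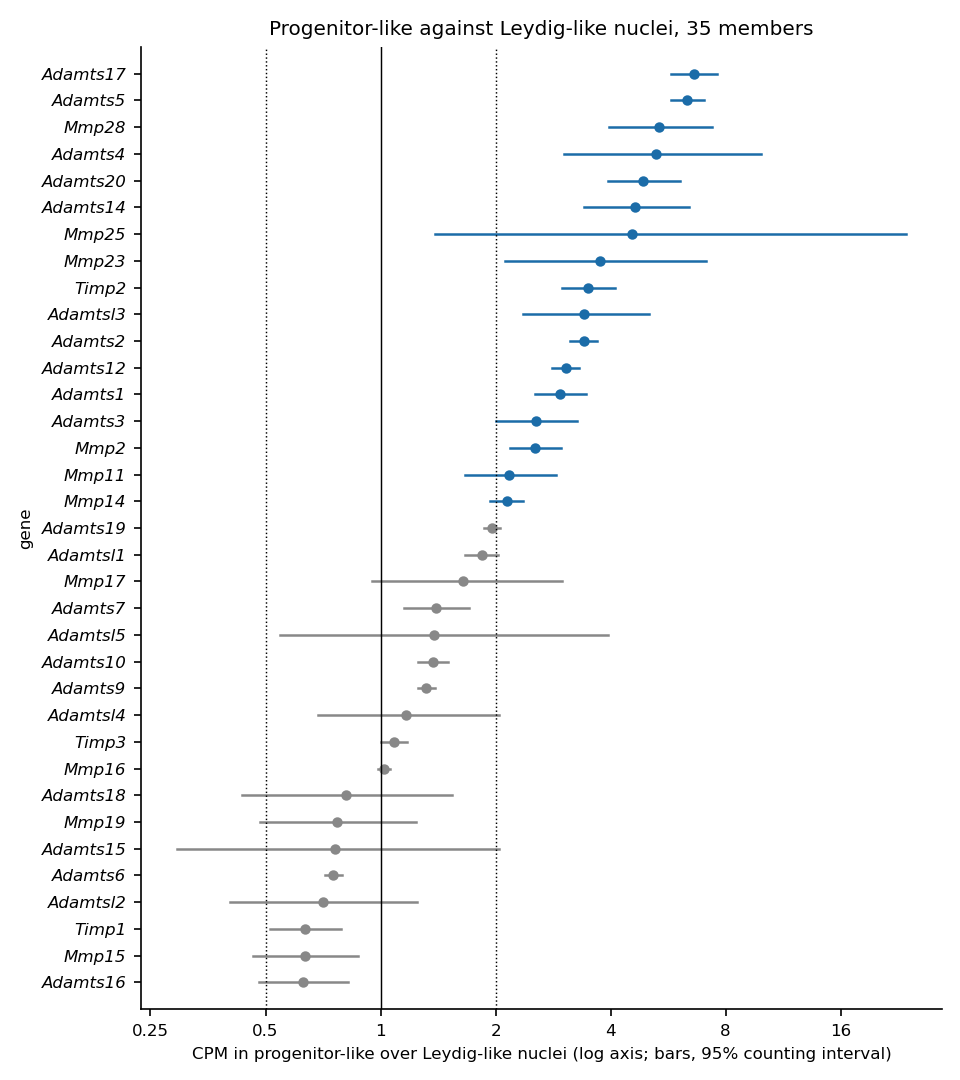
Ratio of CPM in progenitor-like over Leydig-like nuclei (log axis) for the 35 members tested, one per row, with points for the ratio and bars for the 95% counting interval. The 17 blue genes are at least 2-fold higher in progenitor-like nuclei, and the lowest 5 grey genes, from *Adamts6* at 0.752 down to *Adamts16* at 0.627, do not reach a 2-fold difference the other way.

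Some abundant members differed little between both classes, *Mmp16* (1.02, 0.986 to 1.06) and *Timp3* (1.09, 1.005 to 1.17) among them. The interval of *Timp3* lay just above 1. *Adamts6* (0.752, 0.716 to 0.791), *Timp1* (0.636, 0.515 to 0.786) and *Mmp15* (0.636, 0.463 to 0.874) were higher in Leydig-like nuclei by less than 2-fold. *Adamts16* had 7.50 against 11.96 CPM, both below the germ-like 80.6 CPM. Of the 17 members higher in progenitor-like nuclei, 10 had a Leydig-like level below the pooled germ-like one, namely *Adamts3*, *Adamts4*, *Adamts14*, *Adamts17*, *Adamts20*, *Adamtsl3*, *Mmp11*, *Mmp23*, *Mmp25* and *Mmp28*. Against the germ-like cluster of 501 nuclei alone 5 of them did, *Adamts3*, *Adamts17*, *Adamts20*, *Mmp11* and *Mmp23*, while *Adamts14* and *Mmp28* were lower there (3.96 and 4.53 CPM) than in Leydig-like nuclei (5.16 and 5.27). With free RNA subtracted, the 14 described among the 17 had ratios from 2.69 for *Mmp14* to 19.0 for *Mmp23*. At the estimated shares, larger in progenitor-like than in Leydig-like nuclei, this step can only raise a ratio of 2 or more. It is therefore no check on these 14. *Adamts17* then had 199 against 11.8 CPM and *Adamts5* 394 against 35.6 CPM. With classes clustered on chromatin alone and named from RNA markers, the *Adamts5* ratio was 5.87 (5.30 to 6.51), that of *Adamts17* 6.83 (5.91 to 7.93) and that of *Adamts14* 7.42 (5.0 to 11.5).

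The partners and substrates of these proteases gave a similar picture in part, as a description only. Their list was chosen with earlier results of these data known. Unlike the members, its genes were not kept out of the clustering that formed the classes. On a list of 40 further genes, 14 were 2-fold higher in progenitor-like nuclei and 2 were higher in the Leydig-like class, beside the 13.8% and 12.9% of all genes given above, which also hold for each group below. Of 8 substrates and matrix partners, 6 were higher in progenitor-like nuclei. Versican (*Vcan*), cut by ADAMTS1, ADAMTS5 and ADAMTS9, had 951 against 178 CPM, a ratio of 5.33 (5.06 to 5.61), and fibronectin (*Fn1*) had 3.74, fibrillin genes *Fbn2* 3.47 and *Fbn1* 3.09, biglycan (*Bgn*) 3.25 and decorin (*Dcn*) 3.0. All 3 tested plasminogen system genes were higher in progenitor-like nuclei, *Plat*, the tissue activator, at 7.06 against 3.18 CPM. Of 9 ADAM genes 2 were, *Adam15* and *Adam23*, the latter a marker used to name these nuclei. *Adam8*, *Adam10*, *Adam12* and *Adam19* were lower there by less than 2-fold, with ratios from 0.619 to 0.654 and intervals below 1. *Tll1*, an astacin procollagen C-proteinase, was at 235 against 32.9 CPM, and also high in endothelial-like nuclei (427 CPM). *Pcsk6* (PACE4), a proprotein convertase that removes prodomains, went the other way, with 61.9 against 397 CPM, a ratio of 0.156 (0.145 to 0.167). For *Furin*, another convertase, the ratio of 0.976 (0.774 to 1.23) could not be told from 1. Of 7 other inhibitors 2 were higher in progenitor-like nuclei, *Reck* at 70.6 against 34.7 CPM and *Spock3* at 8.81 against 0.768 CPM, a ratio of 11.5 (5.43 to 29.1). In Leydig-like nuclei 1 was higher, *Spock1*, at 0.875 against 43.8 CPM. *Serpine2* was highest in Sertoli-like nuclei, at 419 CPM.

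Chromatin at the starts of the 25 described members was compared between classes clustered on RNA alone. All 25 had a promoter peak. In the class of highest RNA, 3 of 25 promoters were at least 1.5-fold more open than in all other nuclei with an interval above 1, against 26.9% of 10049 genes chosen the same way. The count was 5 with classes from RNA and ATAC together and 5 within 500 bp (26.7% of all genes in each), and 8 with more doublets removed (29.1%). The median ratio was 1.21 over the members and 1.28 over all those genes. *Adamts16* stood first. Its promoter had 22.2 cuts per 1000000 cuts in peaks in Sertoli-like nuclei, from 67 cuts, and 3.34 in all other nuclei, a ratio of 6.67 (4.75 to 9.34). No other class with more than 2 cuts exceeded 5.14 cuts per 1000000. Counted as fragments, since both ends of a fragment are cuts and the interval on cuts is too narrow, the ratio was 6.09 (3.77 to 9.78). A second rise lay inside the gene, in the bin from 1.4 to 1.6 kb after the start, with 4.32 fragment ends per 1000000 fragments in Sertoli-like and 1.59 in all other nuclei.

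**Figure D4:**
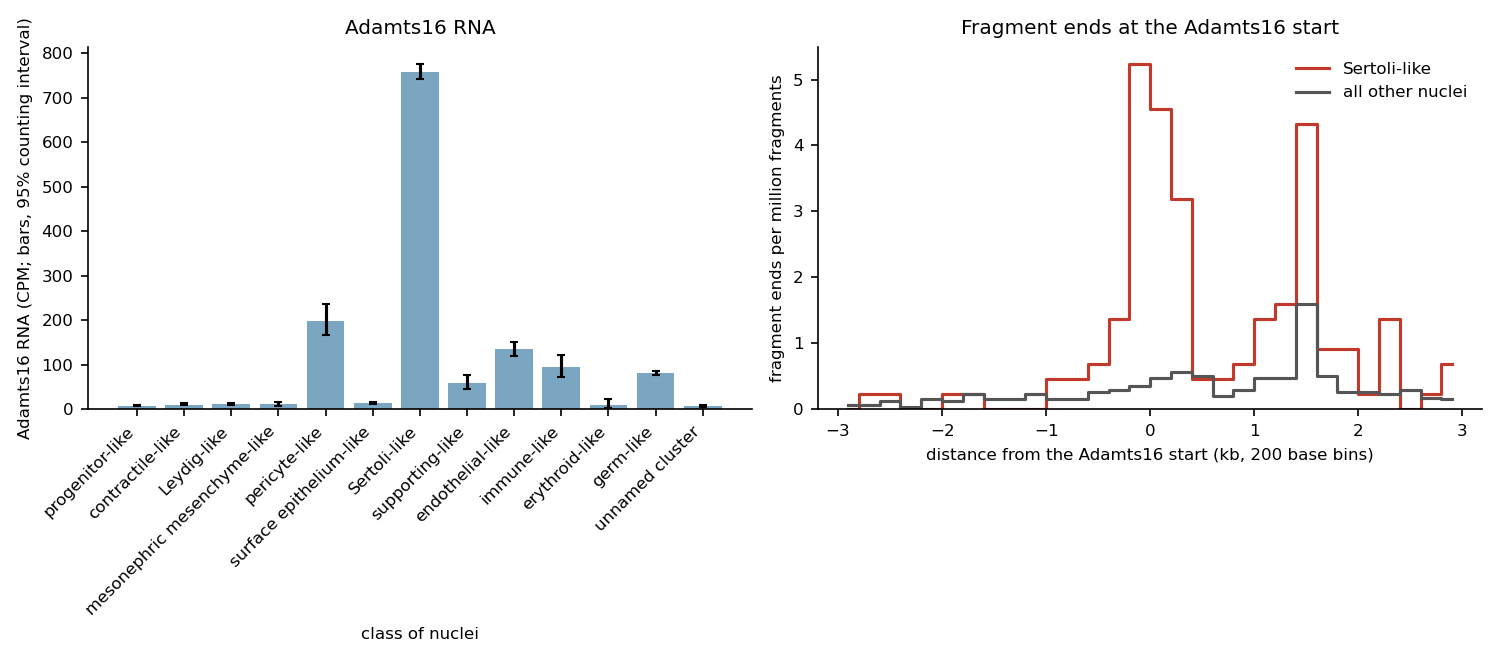
Left, *Adamts16* RNA in CPM (from 0) by class, with bars for the level and whiskers for the 95% counting interval. Right, ATAC fragment ends per 1000000 fragments in bins of 200 bases by distance from the *Adamts16* start, for Sertoli-like nuclei (red) and all other nuclei (grey), with the red line rising to 5.23 just before the start where the grey line stays under 1.

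*Adamts17* had 94.4 cuts per 1000000 at its promoter in supporting-like nuclei against 35.2 in all others, a ratio of 2.68 (1.73 to 3.99), while progenitor-like and Leydig-like nuclei were alike there, 1.0 (0.785 to 1.29), beside an RNA ratio of 6.13 (5.35 to 7.06) in the same classes. *Adamts7* had 1.52 (1.36 to 1.70) in progenitor-like nuclei. For *Adamtsl1*, *Adamts18* and *Adamts19* the promoter ratio could not be told from 1, at 1.29 (0.806 to 1.99), 0.965 (0.507 to 1.68) and 0.856 (0.658 to 1.10), beside RNA ratios of 12.1, 15.8 and 3.69. *Adamts5* had 1.36 (1.07 to 1.72) beside 5.76. *Mmp2* was the member whose promoter differed most between progenitor-like and Leydig-like nuclei, with 46.9 against 14.6 cuts per 1000000, 3.21 (2.26 to 4.69), and *Adamts12* had 1.86 (1.35 to 2.63).

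**Figure D5:**
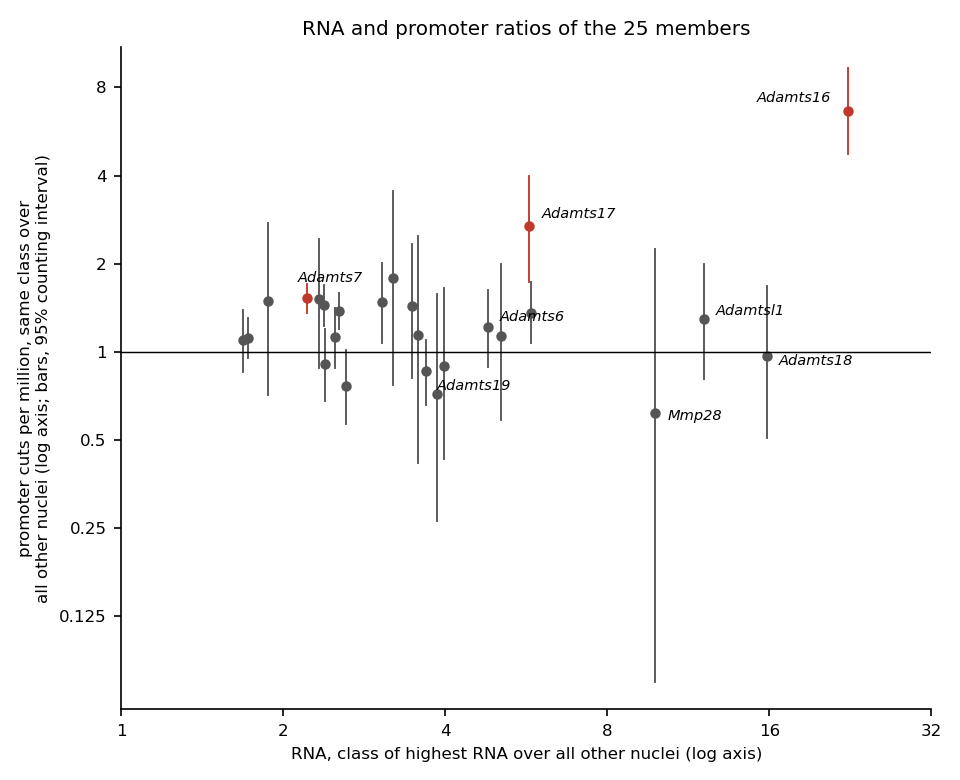
Ratio of promoter cuts per 1000000 (vertical, log axis) against the ratio of RNA (horizontal, log axis), both for the class of highest RNA over all other nuclei, for the 25 described members, with bars for the 95% counting interval of the promoter ratio. The 3 red genes, *Adamts16*, *Adamts17* and *Adamts7*, are at least 1.5-fold more open in that class, and *Adamtsl1*, *Adamts18* and *Mmp28* lie far to the right with an interval that holds 1.

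Some members had a more unequal peak elsewhere in the gene. For each described member the peak with at least 100 cuts and the highest ratio was taken, so these were picked for their values and are a description. For 5 of the 25 (*Adamts1*, *Adamts5*, *Adamts16*, *Adamts18* and *Mmp14*) it lay within 1 kb of the start, and 10 of the 25 had no peak that was 2-fold higher with an interval above 1, beside 65.1% of 10257 genes taken the same way, which had a median of 2 peaks of at least 100 cuts against 4 for the members. In *Adamts17*, a peak 96.5 kb after the start, in an intron, had 52.8 cuts per 1000000 in supporting-like nuclei against 3.37, from 14 cuts, a ratio of 15.7 (8.25 to 27.7). In *Mmp11*, a peak 6.0 kb after the annotated start and 2.0 kb after the RefSeq start had 37.2 in Sertoli-like nuclei against 7.34, a ratio of 5.07 (3.96 to 6.46), where its promoter had 0.766 (0.566 to 1.02). In *Adamts6*, a peak 110 kb after the start had 4.60 (2.76 to 7.36) in mesonephric mesenchyme-like nuclei, and in *Adamts2* one 27.0 kb after the start had 2.75 (2.0 to 3.74) in contractile-like nuclei. *Adamtsl1* had 3.36 (2.24 to 4.90) in surface epithelium-like nuclei at a peak 251 kb after the start, and *Mmp23* had 6.20 (3.33 to 10.6) in the supporting-like class. The central 300 bases of the first 4 are shown on the strand of their gene, with the *Adamts17* promoter for comparison, as examples from 4 classes chosen after their values were seen. Their positions on GRCm38 are chr7:66936114-66936413 (*Adamts17* peak, intron), chr10:75930348-75930647 (*Mmp11* peak, intron, minus strand), chr13:104397794-104398093 (*Adamts6* peak, with 146 bases of an exon), chr11:50628959-50629258 (*Adamts2* peak, intron) and chr7:66839485-66839734 (*Adamts17* promoter). Capitals mark the 4 motifs searched above.
Adamts17 promoter: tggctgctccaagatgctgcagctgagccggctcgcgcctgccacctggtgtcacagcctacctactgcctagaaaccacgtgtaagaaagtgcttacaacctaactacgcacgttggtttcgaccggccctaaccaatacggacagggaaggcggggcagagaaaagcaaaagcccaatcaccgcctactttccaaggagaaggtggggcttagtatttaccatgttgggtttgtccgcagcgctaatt
Adamts17 peak: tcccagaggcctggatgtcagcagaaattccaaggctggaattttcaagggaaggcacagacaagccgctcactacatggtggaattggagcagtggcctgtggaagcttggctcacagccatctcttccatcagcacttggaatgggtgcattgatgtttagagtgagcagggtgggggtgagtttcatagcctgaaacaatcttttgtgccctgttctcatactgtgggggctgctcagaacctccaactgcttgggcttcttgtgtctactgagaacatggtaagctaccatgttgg
Mmp11 peak: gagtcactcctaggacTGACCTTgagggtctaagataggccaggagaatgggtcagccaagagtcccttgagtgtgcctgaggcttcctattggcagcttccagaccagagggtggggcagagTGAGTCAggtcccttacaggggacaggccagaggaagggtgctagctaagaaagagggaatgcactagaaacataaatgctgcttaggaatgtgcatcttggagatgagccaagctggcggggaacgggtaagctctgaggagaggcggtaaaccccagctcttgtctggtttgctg
Adamts6 peak: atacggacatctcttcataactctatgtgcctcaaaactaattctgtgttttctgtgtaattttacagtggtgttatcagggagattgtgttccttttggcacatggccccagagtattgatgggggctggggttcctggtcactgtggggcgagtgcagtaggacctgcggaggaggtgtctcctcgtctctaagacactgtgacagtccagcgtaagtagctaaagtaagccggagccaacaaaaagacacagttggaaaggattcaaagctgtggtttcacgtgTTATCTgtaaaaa
Adamts2 peak: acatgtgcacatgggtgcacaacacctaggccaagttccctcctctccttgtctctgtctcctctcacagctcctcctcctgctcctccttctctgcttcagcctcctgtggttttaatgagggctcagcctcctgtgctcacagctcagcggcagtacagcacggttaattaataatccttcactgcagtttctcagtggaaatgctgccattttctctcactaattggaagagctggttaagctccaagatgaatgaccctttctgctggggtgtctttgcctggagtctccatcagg
The *Mmp11* peak holds TGACCTT, the reverse of the nuclear receptor element, and TGAGTCA, found in 10.8% and 5.85% of the central 300 bases of all 109175 peaks searched. The *Adamts6* peak holds TTATCT, the reverse of the GATA letters, found in 17.3%. The *Adamts17* promoter and peak and the *Adamts2* peak hold none of the 4, and ACAATG or its reverse, in 12.6% of peaks, is in none of the sequences shown.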

How the data were processed

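RNA and open chromatin were measured in nuclei of whole E14.5 testes, with 1 library for each assay. The authors processed the reads with Cell Ranger ARC 2.0.1 against mm10 and deposited raw counts, namely UMIs for each gene and transposase cuts in each peak, and the list of ATAC fragments. Default settings were used per the methods, and how reads of overlapping genes were assigned by strand was not stated.

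Barcodes with at least 500 genes, at most 10% mitochondrial, 10% ribosomal and 0.5% haemoglobin UMIs, at least 20% of fragments at peaks and 250 to 25000 such fragments were kept, and 470 nuclei (6.13%) of highest Scrublet score were removed as doublets. Joint clusters came from Seurat 5.3.0 (2000 variable genes, 30 components, the members left out; resolution 0.6, the lowest tried that gave a contractile-like cluster) in R 4.3.3 with irlba 2.3.5.1, and were named from marker lists. Scrublet ran in scanpy 1.11.5, and other steps in Python 3.11.15 with NumPy 2.4.6, SciPy 1.17.1, pandas 2.3.3 and matplotlib 3.10.9. UMIs were summed per class and scaled to CPM, with exact Poisson intervals for levels, exact conditional binomial intervals for ratios and a confidence level of 95%. Medians of log2 ratios used a pseudocount of 1 CPM. With 1 library per assay no test was made. The calculations were tested on simulated data. Members with at least 100 UMIs and 20 CPM in a class of at least 30 nuclei were described one by one, the others by family with their highest class. The members and gene lists were chosen with earlier results of these data known. Alternatives covered doublets, quality minimums, clustering, free RNA, scaling, count minimums, fold, pseudocount and promoter window. The resolution rule gave 0.3 under the automatic Scrublet threshold, stricter minimums and members allowed among the variable genes, so each was also run at 0.6. These 3 and a further 3 (the unnamed cluster joined to germ-like nuclei, leaving out the cluster of highest UMI count, and fragments in place of cuts) were chosen after seeing the data.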

Additional observations from a re-analysis of the deposited data

How the results depend on the processing

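All values rest on 1 library per assay, so the spread between embryos is unknown, and intervals cover counting error only. RNA and ATAC came from the same nuclei, but with 1 library per assay no paired analysis over replicates was possible. Small classes (98 nuclei or fewer) have few UMIs, cut intervals are too narrow since cuts come in pairs, and class names were rebuilt from markers. The count of members 2-fold higher in progenitor-like than Leydig-like nuclei, 17, lay between 13 and 20 in every alternative run at that fold, beside 6.91% to 18.7% of all genes, and was 12 with a fold of 3 (7.63%). Its median log2 ratio of 0.91 stayed above 0 in each. It was 1.46 with the automatic Scrublet threshold at a resolution of 0.3 (as the resolution rule gave there) and of 0.6, 0.77 and 0.69 with stricter minimums at 0.3 and 0.6, 1.02 with clusters on ATAC alone, 1.09 at resolution 0.3 with no other change, 1.27 with free RNA subtracted, 1.12 as the mean of per-nucleus CPM, 1.26 with at least 100 UMIs, 0.20 with no minimum and 0.45 with a pseudocount of 10 CPM. The cause of these shifts was not tested, except that the last 3 follow from the genes or values the setting lets in. The count higher in Leydig-like nuclei, 0, was 3 at resolution 0.3, where the progenitor-like class was only the cycling cluster of 727 nuclei (15.3% of all genes), and 1 with free RNA subtracted (18.6%), with no minimum (7.37%) and with stricter minimums at 0.6 (12.1%). Members higher in any class fell from 32 to 19 with a fold of 3, beside 42% of all genes. The 3 promoters more open in the class of highest RNA became 5 with classes from RNA and ATAC together, 5 within 500 bp, 6 over the gene body and 1 kb (28.2% of all genes), 7 and 8 with the automatic Scrublet threshold at 0.3 and 0.6 (28.5% and 29.1%) and 5 counted as fragments, for which no share of all genes was computed, and the cause was not tested. Of the 25 described members, the highest class was unchanged for 20 with the automatic Scrublet threshold at either resolution and for 22 with free RNA subtracted.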
